A study of Homo sapiens with 8 samples.

Results

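The noncoding host genes of small nucleolar RNAs (snoRNAs) were followed in U251 cells, a human glioblastoma cell line, after inhibition of PRMT5. They were taken from the gene table by name, as the numbered SNHG genes (small nucleolar RNA host gene) together with GAS5, ZFAS1 and DANCR, which gave 31 of the 61906 genes listed. The RNAseq data comprised 8 libraries of wild type U251 cells, 4 from cultures given vehicle (DMSO) and 4 from cultures given LLY-283, a small-molecule inhibitor of PRMT5, at 100 nM, each harvested after 24 h. PRMT5 dimethylates arginine residues symmetrically, among others in proteins of the splicing machinery. Levels are in TPM, a share of the library per unit of transcript length, so that genes of different length can be set side by side. This unit does not retain read numbers, and since sequencing depth is therefore unknown no counting error is given. The replicates are labelled biological, without a statement of how the cultures were separated. The p-values weigh the difference between the groups against the spread between these libraries. A single cell line was used, and a change in RNA per cell cannot be told apart from a change in the make-up of the culture.

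Small nucleolar RNAs guide the chemical modification of ribosomal RNA, box C/D snoRNAs toward methylation of the ribose and box H/ACA snoRNAs toward pseudouridine, while the related scaRNAs act on spliceosomal RNAs in Cajal bodies. In human cells most of them are cut out of the introns of a longer transcript after splicing. The host genes studied here are transcripts of that kind whose exons carry no conserved protein. Many begin with a run of pyrimidines, the mark of transcripts whose translation follows growth signals, and many of the spliced host RNAs are removed by nonsense-mediated decay when ribosomes meet an early stop codon. Poly(A) RNA was captured for these libraries, so that the spliced and polyadenylated host RNA is measured and the snoRNA itself, which has no poly(A) tail, is measured poorly.

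By RefSeq positions, 29 of the 31 host genes span at least 1 snoRNA or scaRNA gene. Box C/D snoRNAs alone lie in 13 of them, box H/ACA snoRNAs alone in 10 and scaRNAs alone in 4, while GAS5 and SNHG12 span both kinds of snoRNA. The number of snoRNAs differs widely, from 1 in DANCR to 11 in GAS5 and 83 in SNHG14. To show what is carried inside such a transcript, the snoRNAs of the 2 host genes with the smallest p-values among those that rose, SNHG16 and DANCR, are given from the GENCODE release 44 transcripts, 5′ to 3′. In the 3 box C/D snoRNAs of SNHG16, capitals mark the first GATG (the core of box C) and the last CTGA (box D), and in SNORA26 of DANCR they mark the ACA near the 3′ end. All 4 lie in introns of the canonical transcript of their host, at chr17:76561634-76561705 (SNORD1A), chr17:76561109-76561192 (SNORD1B), chr17:76558791-76558868 (SNORD1C) and chr4:52713249-52713370 (SNORA26) of GRCh38, plus strand.
SNORD1A: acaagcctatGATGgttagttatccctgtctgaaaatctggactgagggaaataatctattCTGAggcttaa
SNORD1B: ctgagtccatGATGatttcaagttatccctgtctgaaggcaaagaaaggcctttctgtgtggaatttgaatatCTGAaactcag
SNORD1C: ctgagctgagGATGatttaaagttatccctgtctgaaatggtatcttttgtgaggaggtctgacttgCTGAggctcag
SNORA26: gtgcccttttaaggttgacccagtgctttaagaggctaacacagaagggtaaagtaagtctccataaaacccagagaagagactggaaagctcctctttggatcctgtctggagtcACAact
The 3 SNORD1 sequences share the run agttatccctgtctgaa, which is 17 bases long and is the longest stretch common to all of them.

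The starts of the host genes were compared because the pyrimidine run is the sequence feature these genes are known for, and the name rule did not use it. RefSeq start windows (GRCh38.p14) were matched for 27 of the 31 genes, and SNHG6, SNHG9, SNHG15 and SNHG25 had no match. A run of at least 6 consecutive bases that are each C or T, on the transcribed strand and touching the 5 bases on either side of the annotated start, was found in 17 of the 27 host genes (63.0%) and in 22.2% of the 35116 start windows of all genes. This rule was set after the sequences had been seen and is a description. RefSeq starts can differ from the GENCODE positions used elsewhere in the text. The GAS5 window, at chr1:173869026-173869065, lay upstream of its GENCODE gene, and GAS5 was counted as without a run. How the count depends on the choice of start was not tested. Of the genes described below as higher, 7 of the 9 with a window carried such a run, as did both genes described as lower and 7 of the 12 that were not called, so the run was not limited to genes that moved in 1 direction. Windows of 40 bases, 20 on each side of the annotated start, are shown for 6 of the 7 genes that rose with a run. DANCR, which rose and has a run of 5, and SNHG4, which fell, are shown as well. Capitals mark the longest run of pyrimidines touching the 5 bases on either side of the annotated start. The rule does not require the run to include the start. The run of SNHG29 ended upstream of it, and those of SNHG16, SNHG17, SNHG1 and DANCR began downstream. Those of SNHG5, SNHG19 and SNHG4 reached the start.
SNHG16, chr17:76557744-76557783, plus strand: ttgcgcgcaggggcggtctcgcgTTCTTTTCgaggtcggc
SNHG5, chr6:85678714-85678753, minus strand: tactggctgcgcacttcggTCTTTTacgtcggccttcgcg
SNHG19, chr16:2155339-2155378, minus strand: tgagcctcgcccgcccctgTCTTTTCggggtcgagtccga
SNHG17, chr20:38435309-38435348, minus strand: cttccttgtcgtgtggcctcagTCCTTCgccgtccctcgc
SNHG1, chr11:62855866-62855905, minus strand: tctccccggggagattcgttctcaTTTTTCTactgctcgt
SNHG29, chr17:16438967-16439006, plus strand: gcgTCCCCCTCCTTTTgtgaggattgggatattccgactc
DANCR, chr4:52712374-52712413, plus strand: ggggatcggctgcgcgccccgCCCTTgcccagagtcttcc
SNHG4, chr5:139274081-139274120, plus strand: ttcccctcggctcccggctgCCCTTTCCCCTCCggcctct

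None of the 31 host genes was at 0 in every library, and 30 were above 0 in all 8. The exception was SNHG27, above 0 in 5 libraries and at most 0.45 TPM. Mean levels over the 8 libraries were at least 100 TPM for 8 genes, from 10 to 100 TPM for 14, from 1 to 10 TPM for 5 and under 1 TPM for 4 (SNHG22, SNHG26, SNHG27 and SNHG28). SNHG29, the host of SNORD49A, SNORD49B and SNORD65, had the highest level, with 560 ± 15.6 TPM in vehicle-treated cells (SD, n = 4). GAS5, which was named for its accumulation in growth-arrested cells, followed with 291 ± 11.0 TPM (SD, n = 4), and the next levels in vehicle-treated cells were those of ZFAS1 (150 ± 5.67 TPM), SNHG8 (149 ± 4.41 TPM) and SNHG6 (141 ± 5.15 TPM), whose ranges over the 4 libraries overlap. Lowest of the tested genes, SNHG31 and SNHG18 had 1.39 ± 0.300 and 2.13 ± 0.627 TPM. Summed over the 31 genes, the host RNAs took 2182 to 2375 TPM in the vehicle libraries and 2338 to 2467 TPM in the LLY-283 libraries, between 0.218% and 0.247% of a library. The summed ranges overlapped through vehicle replicate 2, in which SNHG25 alone had 152.96 TPM. Leaving SNHG25 out, the sums were 2152 to 2259 TPM with vehicle and 2269 to 2364 TPM with LLY-283 and did not overlap. SNHG25 was left out after its values had been seen, and the nearest sums, 2259 and 2269 TPM, were close.

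**Figure D1:**
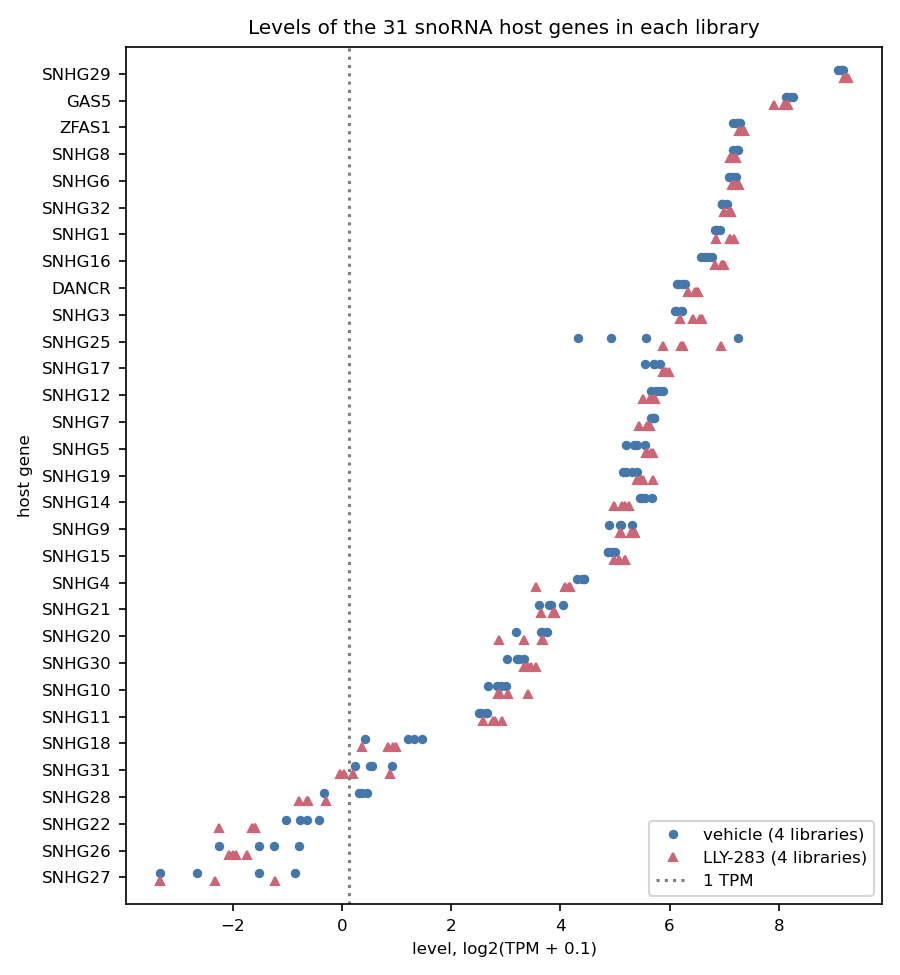
Levels of the 31 host genes as log2(TPM + 0.1), 1 row per gene ordered by mean level, with the 4 vehicle libraries as circles and the 4 LLY-283 libraries as triangles; the dotted line is 1 TPM. SNHG29 stands highest and SNHG27 lowest, and SNHG25 has the widest spread of the genes above 1 TPM, from 19.82 to 152.96 TPM with vehicle.

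Some facts of the libraries bear on all results. Genes of the mitochondrial genome took 10.2% to 11.0% of the TPM in 7 libraries and 7.19% in LLY-283 replicate 4, which therefore stands apart. Several results in which it lay apart from the other LLY-283 libraries are given with and without it. The glioma markers VIM (4301 ± 34.8 TPM) and GFAP (810 ± 32.6 TPM) were abundant in vehicle-treated cells (SD, n = 4 each). Of the 8 glioma markers, CD44 was higher (log2 change 0.11, adjusted p = 0.0168, limma), and GFAP (-0.25, adjusted p = 0.00082), SOX2 (-0.27, adjusted p = 0.000349) and NES (-0.17, adjusted p = 0.000731) were lower with LLY-283. S100B was low, at 4.33 ± 0.645 TPM with vehicle (SD, n = 4), and the summed level of the 8 markers was 7543 to 7730 TPM against 7290 to 7642 TPM. Of 10 markers of immune, endothelial, epithelial, neuronal, oligodendrocyte and connective tissue cells, 9 had a mean under 1 TPM and AIF1 and CD3E were at 0 in all libraries. The tenth, the collagen gene COL1A1, had 53.9 ± 2.59 TPM with vehicle and 74.9 ± 4.74 TPM with LLY-283, which sets the summed range of the list, 51.0 to 56.4 TPM against 69.6 to 81.0 TPM. Its part in the results below was not tested.

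The question of the comparison was which host RNAs changed when PRMT5 was inhibited. Of the 27 host genes that reached 1 TPM on average, 10 were higher and 2 were lower in LLY-283-treated cells at an adjusted p-value under 0.05 (limma on log2(TPM + 0.1) across 14478 genes, Benjamini-Hochberg adjustment). Those that rose were SNHG1, SNHG3, SNHG5, SNHG15, SNHG16, SNHG17, SNHG19, SNHG29, SNHG30 and DANCR, and those that fell were SNHG4 and SNHG14. Among all genes tested, 8.61% were called higher and 17.6% lower, together 26.2%, against 37.0% and 7.41% of the host genes. The increases were small, from 1.07-fold for SNHG29 to 1.22-fold for SNHG3. A change past 1.5-fold was called in 0 of these 27 host genes, also with unadjusted p-values, where 3.87% of all genes did with adjustment (0.394% higher and 3.48% lower). The median log2 change of the 27 genes was 0.10, against -0.05 for all genes tested. These medians were 0.10 and 0.01 with quantile normalization, and 0.14 and -0.00 with median-of-ratios scaling. With median-of-ratios scaling, 12 host genes were higher and 1 lower, against 13.3% and 12.9% of all genes, and the share of increases among all calls went from 32.9% to 50.8%, as it did with quantile normalization (50.7%), where 10 host genes were higher and 2 lower. Without LLY-283 replicate 4, 12 host genes were higher, including all 10 named above, and 2 were lower, against 10.4% and 18.4% of all genes.

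The number of calls depended on single libraries. Without vehicle replicate 1, LLY-283 replicate 1 or LLY-283 replicate 2 it fell to 3 increases each, 11.1% of the host genes, where 6.42%, 6.62% and 6.53% of all genes were higher. Without vehicle replicate 3 it fell to 4 (14.8% against 7.07% of all genes) and without vehicle replicate 4 to 5 (18.5% against 6.13%). Without vehicle replicate 2 there were 8 (29.6% against 6.42%) and without LLY-283 replicate 3 there were 7 (25.9% against 6.51%). DANCR, SNHG16 and the lower gene SNHG14 were called under all 18 alternative fits, the 8 omissions included. SNHG17 lost its call without LLY-283 replicate 2, and SNHG5 lost it without vehicle replicate 1 and without LLY-283 replicate 1, while the remaining 7 called genes lost theirs under between 5 and 7 of the 8 omissions. Groups without overlap were found in 9 of the 27 tested host genes, 6 of them higher and 3 lower, where 29.2% of all genes tested had groups without overlap (9.63% higher and 19.6% lower).

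**Figure D2:**
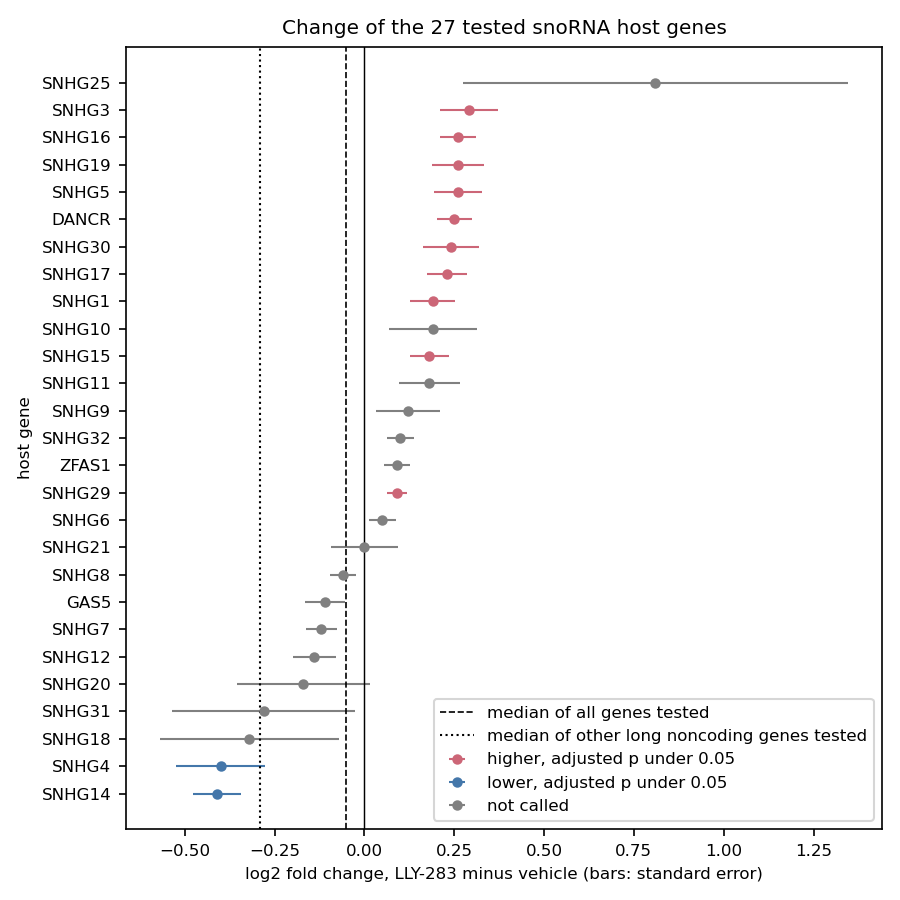
Log2 fold change of the 27 tested host genes, LLY-283 minus vehicle, with standard errors as bars (4 libraries per group); red and blue mark genes called higher and lower at an adjusted p-value under 0.05 and grey the rest. Called increases lie between 0.09 and 0.29 and the called decreases near -0.40, and SNHG25 has the longest bar (0.535).

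Among the hosts of box C/D snoRNAs, SNHG16 (chr17:76557727-76670985 of GRCh38, plus strand), whose snoRNAs are printed above, had 95.06, 109.58, 100.11 and 104.55 TPM under vehicle and 127.71, 124.21, 114.25 and 124.87 TPM under LLY-283. Every LLY-283 value lay above every vehicle value. The log2 change, LLY-283 minus vehicle, was 0.26 with a standard error (SE) of 0.050 (adjusted p = 0.00492, limma), and it stayed from 0.23 to 0.30 over the 8 omissions of a library. SNHG5 (chr6:85650491-85678932, minus strand), the host of SNORD50A and SNORD50B, had 40.39, 46.46, 36.53 and 42.21 TPM with vehicle and 50.70, 47.55, 47.89 and 51.48 TPM with LLY-283. The groups did not overlap, although the highest vehicle value came close to the lowest LLY-283 value, and the log2 change was 0.26 (SE 0.067, adjusted p = 0.0198). SNHG19 (chr16:2154792-2155405, minus strand), the short host of SNORD60, had 39.67, 42.27, 35.34 and 36.57 TPM with vehicle and 45.25, 44.45, 42.39 and 51.94 TPM with LLY-283, again without overlap, though the nearest values of the groups were close (log2 change 0.26, adjusted p = 0.0292).

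SNHG1 (chr11:62851978-62855953, minus strand) spans 8 box C/D snoRNA genes, SNORD22 and SNORD25 to SNORD31. Its values were 114.34, 115.87, 115.01 and 121.52 TPM with vehicle and 137.09, 144.27, 137.75 and 115.42 TPM with LLY-283. In SNHG1, 3 LLY-283 libraries lay above all vehicle libraries, and LLY-283 replicate 4 lay among the vehicle values. The call was close to the threshold (log2 change 0.19, SE 0.0625, adjusted p = 0.0495) and was kept under 4 of the 18 alternatives. Without LLY-283 replicate 4 the log2 change was 0.26 and the adjusted p-value 0.000873. SNHG29 (chr17:16438767-16480249, plus strand), the most abundant host, had 569.19, 559.52, 538.86 and 574.27 TPM with vehicle and 592.22, 601.00, 582.82 and 611.88 TPM with LLY-283. The groups did not overlap, but the difference was 6.53% (log2 change 0.09, adjusted p = 0.0413), the smallest of the calls. SNHG30 (chr17:35568050-35574900, plus strand), which holds SNORD7, was a low-level host with 9.10 ± 0.830 TPM with vehicle and 10.8 ± 0.717 TPM with LLY-283 (SD, n = 4 each; log2 change 0.24, adjusted p = 0.0467). Its groups overlapped, since vehicle replicate 2 and LLY-283 replicate 4 were both at 10.00 TPM.

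Hosts of box H/ACA snoRNAs gave 4 increases. DANCR (chr4:52712325-52723623, plus strand), named for its effect against differentiation and host of SNORA26, had 71.14, 70.53, 77.75 and 74.96 TPM with vehicle and 80.62, 88.48, 91.08 and 90.97 TPM with LLY-283. All LLY-283 values lay above all vehicle values, with a log2 change of 0.25 (SE 0.0483, adjusted p = 0.00502). SNHG17 (chr20:38419638-38435409, minus strand), the host of the SNORA71 family, had 46.69, 56.85, 52.43 and 52.51 TPM with vehicle and 58.34, 63.50, 60.41 and 61.03 TPM with LLY-283. These groups did not overlap either (log2 change 0.23, SE 0.0565, adjusted p = 0.0173). SNHG3 (chr1:28505980-28510892, plus strand) holds SNORA73A and SNORA73B, snoRNAs that act in the cleavage of the ribosomal RNA precursor rather than in its modification. It had 69.16, 74.65, 67.99 and 73.44 TPM with vehicle and 96.64, 94.14, 85.91 and 72.89 TPM with LLY-283. As for SNHG1, 3 LLY-283 libraries lay above the vehicle range and LLY-283 replicate 4 lay inside it. The log2 change of SNHG3 was 0.29 (SE 0.081, adjusted p = 0.0289) with all libraries and 0.37 (adjusted p = 0.00161) without LLY-283 replicate 4. SNHG15 (chr7:44983019-44986961, minus strand), the host of SNORA9, had 30.2 ± 1.36 TPM with vehicle and 34.3 ± 2.31 TPM with LLY-283 (SD, n = 4 each; log2 change 0.18, adjusted p = 0.0373), and here too LLY-283 replicate 4, at 31.46 TPM, was the only LLY-283 library within the vehicle range. Without it the log2 change was 0.22 (adjusted p = 0.0111).

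With all libraries, both decreases were larger on the log2 scale than any of the called increases, but without LLY-283 replicate 4 neither SNHG14 (-0.35) nor SNHG4 (-0.25) exceeded the increase of SNHG3 (0.37). SNHG14 (chr15:24978583-25420336, plus strand) is the very long host of the SNORD116 and SNORD115 clusters in an imprinted region, and its transcripts run antisense to the ubiquitin ligase gene UBE3A. It had 43.98, 45.01, 50.97 and 46.92 TPM with vehicle and 34.93, 36.35, 38.21 and 31.32 TPM with LLY-283. No value overlapped, and the log2 change was -0.41 (SE 0.0667, adjusted p = 0.0023), from -0.45 to -0.35 over the 8 omissions. SNHG14 overlaps SNRPN on the same strand, which itself had 72.7 ± 1.00 TPM with vehicle and a log2 change of -0.18 (adjusted p = 0.00427). How the authors' counting divided reads between the 2 genes was not tested. The RefSeq start of SNHG14 lies upstream of the GENCODE start, at chr15:24823588-24823627 by its window. UBE3A, on the opposite strand, had a log2 change of -0.03 (adjusted p = 0.787).

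SNHG4 (chr5:139274102-139284899, plus strand), the host of SNORA74A and SNORA74D, had 21.52, 19.77, 20.89 and 21.38 TPM with vehicle and 17.94, 17.70, 16.95 and 11.64 TPM with LLY-283. The groups did not overlap, and LLY-283 replicate 4 lay far under the other 3. The log2 change was -0.40 (SE 0.124, adjusted p = 0.0418) with all libraries and -0.25 (adjusted p = 0.00497) without LLY-283 replicate 4. The call was kept under 7 of the 18 alternatives. SNHG4 overlaps a MATR3 gene entry on the same strand, which had a log2 change of -0.14 (adjusted p = 0.736), and SIL1 on the opposite strand, which had one of -0.18 (adjusted p = 0.0284).

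**Figure D3:**
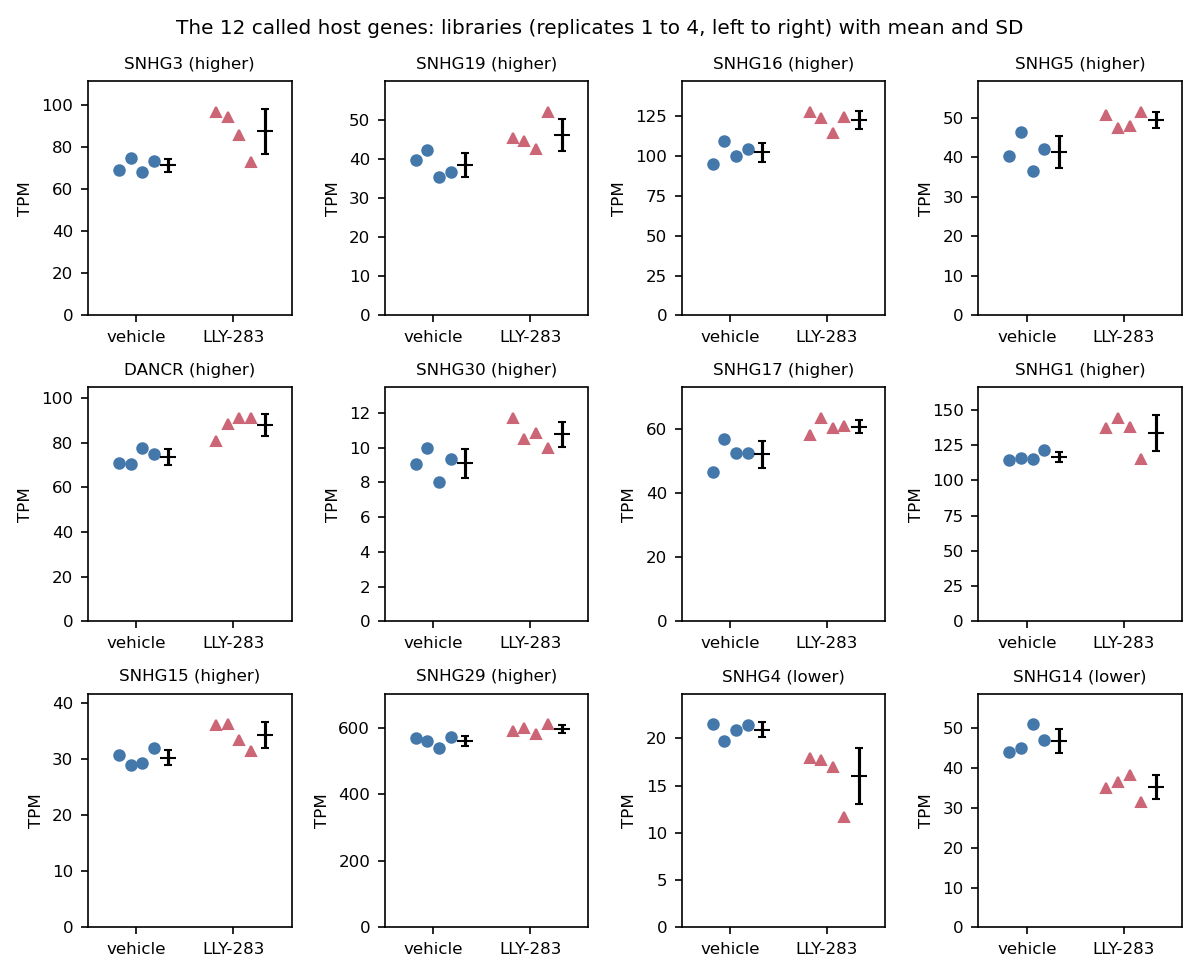
TPM of the 12 called host genes in each library (circles vehicle, triangles LLY-283, replicates 1 to 4 from left to right in each group) with the mean and SD of 4 libraries beside them; each axis starts at 0. The LLY-283 triangles lie above all circles for SNHG16, SNHG5, SNHG19, DANCR, SNHG17 and SNHG29 and under them for SNHG4 and SNHG14, while for SNHG3, SNHG1 and SNHG15 the fourth triangle falls among the circles.

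The other 15 tested host genes were not called. GAS5 (chr1:173858559-173868882, minus strand), the second most abundant host, had 280.96, 296.99, 283.86 and 304.16 TPM with vehicle and 286.61, 282.78, 272.19 and 238.82 TPM with LLY-283. The groups overlapped, with LLY-283 replicate 4 the lowest library, with a log2 change of -0.11 (SE 0.0563, adjusted p = 0.172) and of -0.05 (adjusted p = 0.253) without it. ZFAS1, which starts beside the helicase gene ZNFX1 on the opposite strand and holds the SNORD12 family, had 156.43, 150.15, 142.64 and 150.99 TPM with vehicle and 163.67, 156.55, 165.17 and 154.40 TPM with LLY-283. Its log2 change of 0.09 did not pass (adjusted p = 0.0896), but it did when LLY-283 replicate 4 was left out (adjusted p = 0.0487) and under median-of-ratios scaling. SNHG32, the host of SNORD48 and SNORD52, was similar, with 126 ± 4.53 and 135 ± 5.53 TPM as mean ± SD of 4 libraries each (log2 change 0.10, adjusted p = 0.0915), and passed when LLY-283 replicate 3 was left out and under median-of-ratios scaling. SNHG6, host of SNORD87, had a log2 change of 0.05 (adjusted p = 0.317) and SNHG8, host of SNORA24, one of -0.06 (adjusted p = 0.285). The standard errors of these 2 genes were 0.0376 and 0.0356.

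SNHG7 and SNHG12 lay on the lower side. SNHG7, host of SNORA17A and SNORA17B, had 50.19, 52.03, 51.54 and 52.14 TPM with vehicle and 49.78, 48.82, 43.52 and 47.72 TPM with LLY-283. These groups did not overlap, yet the log2 change of -0.12 did not pass the adjustment (SE 0.044, adjusted p = 0.0752). SNHG12 had 55.0 ± 3.58 and 50.0 ± 3.34 TPM as mean ± SD of 4 libraries each (log2 change -0.14, adjusted p = 0.124, and -0.09, adjusted p = 0.235, without LLY-283 replicate 4). The hosts SNHG11 (log2 change 0.18, adjusted p = 0.153) and SNHG9 (0.12, adjusted p = 0.371) were not called, and SNHG11 passed without LLY-283 replicate 4 (adjusted p = 0.0427) and with quantile normalization. Single libraries moved SNHG9, from 0.05 without vehicle replicate 2 (adjusted p = 0.713) to 0.18 without vehicle replicate 1 (adjusted p = 0.156).

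None of the 3 tested hosts of scaRNAs was called by limma, and 0 had an unadjusted p-value under 0.05. The log2 changes were 0.19 for SNHG10 (adjusted p = 0.289), 0.00 for SNHG21 (adjusted p = 0.997) and -0.17 for SNHG20 (adjusted p = 0.526), with standard errors of 0.122, 0.0937 and 0.185. Single libraries moved these values: SNHG10 was at 0.07 without LLY-283 replicate 2 (adjusted p = 0.624), and SNHG20, with 7.27 TPM in LLY-283 replicate 4 against 10.01 to 12.72 TPM in the others, was at -0.004 without that library (adjusted p = 0.989) and at -0.30 without vehicle replicate 2 (adjusted p = 0.28). In the low-level hosts SNHG18 and SNHG31 the log2 changes of -0.32 and -0.28 were of the order of their standard errors (0.248 and 0.255). With single libraries left out they ran from -0.55 to -0.19 and from -0.48 to -0.15. By class of the RefSeq snoRNAs, 6 of 12 tested box C/D hosts were higher and 1 lower, and 4 of 10 tested box H/ACA hosts were higher and 1 lower, with medians of 0.14 and 0.15 on the log2 scale, where 8.61% of all genes were higher and 17.6% lower. The difference between the classes was not tested.

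SNHG25, which holds SNORD104, varied too much between libraries for a call. It is a short host, with 340 exonic bases, and had 19.82, 152.96, 30.25 and 47.28 TPM with vehicle and 123.26, 75.87, 58.95 and 73.89 TPM with LLY-283. The vehicle values alone spanned more than the whole LLY-283 range, and the log2 change of 0.81 had a standard error of 0.535 (adjusted p = 0.299). Over the omissions of single libraries the log2 change ran from 0.41 without vehicle replicate 1 (adjusted p = 0.611) to 1.39 without vehicle replicate 2 (adjusted p = 0.0202), the only omission with a call. SNORA50C, a snoRNA gene of 133 bases annotated within an exon of SNHG25, was the only one with a call among the 10 nested snoRNA genes tested, where 17.6% of all genes were lower. It had 18.79, 8.73, 8.77 and 1.84 TPM with vehicle and was listed at 0 in LLY-283 replicates 1, 2 and 4 and at 1.82 TPM in replicate 3, so that it was lower where its host had the higher mean. The bases of SNORA50C are also exonic bases of SNHG25, and how reads there were divided between the 2 genes was not tested.

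The 4 hosts under the filter of 1 TPM were all lower on average with LLY-283. SNHG22, a host of SCARNA17, had 0.49, 0.65, 0.39 and 0.54 TPM with vehicle and 0.22, 0.23, 0.23 and 0.11 TPM with LLY-283, without overlap. In a limma fit without the filter its log2 change was -1.06 (adjusted p = 0.0382), which is past 1.5-fold. SNHG28 had 1.07 ± 0.256 and 0.573 ± 0.103 TPM (SD, n = 4 each; adjusted p = 0.0841 without the filter). SNHG26 (adjusted p = 0.459) and SNHG27 (adjusted p = 0.711) were not called in that fit either, in which 4 host genes were higher and 2 lower, SNHG14 and SNHG22, against 2.96% and 6.49% of all 31471 genes in it. The 2 decreases among 31 host genes are near that background.

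The snoRNAs inside these hosts could hardly be followed in the same libraries. The table lists 144 snoRNA and scaRNA genes nested in the host genes on the same strand (GENCODE release 44). Of these, 128 were at 0 in all 8 libraries and 2 were above 0 in every library. SNHG14 alone held 84 of the 144, all at 0 in every library. In GAS5, 0 were found by this release, against 11 by RefSeq positions. A mean of at least 5 TPM was reached by 2 of the 144. An SNORD22 entry in SNHG1 had between 12.45 and 34.63 TPM with vehicle and between 0.00 and 28.29 TPM with LLY-283 (adjusted p = 0.405). SNORA73B in SNHG3 had between 11.44 and 29.30 TPM with vehicle and between 13.53 and 17.21 TPM with LLY-283 (adjusted p = 0.689). Neither moved with its host beyond the spread between libraries.

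Compared with other noncoding genes, the SNHG group lay on the other side of 0. Of 1341 other long noncoding genes tested, 2.54% were higher and 28.6% lower, with a median log2 change of -0.29 against 0.10 for the 27 host genes. Host genes of microRNAs (25 tested, 1 higher and 8 lower, median -0.24) and LINC genes (148 tested, 6 higher and 47 lower, median -0.27) resembled the other long noncoding genes. The groups also differ in level, since the median mean level was 49.5 TPM for the snoRNA hosts and 2.43 TPM for the other long noncoding genes. Noncoding genes outside the SNHG names that hold an annotated snoRNA gene had a median of -0.22 and a median level of 2.40 TPM. Of 14 tested, 1 was higher and 2 lower (7.14% and 14.3%), close to the 8.61% and 17.6% of all genes. Those lower were TMEM161B-DT, from 56.4 ± 0.987 to 32.1 ± 1.34 TPM as mean ± SD of 4 libraries each (log2 change -0.81, adjusted p = 4.44e-06), and MEG8, an imprinted host of a box C/D cluster, with 17.27 to 19.72 TPM against 13.29 to 16.28 TPM (log2 change -0.32, adjusted p = 0.00857). These groups are set side by side as a description, and the differences between them were not tested.

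**Figure D4:**
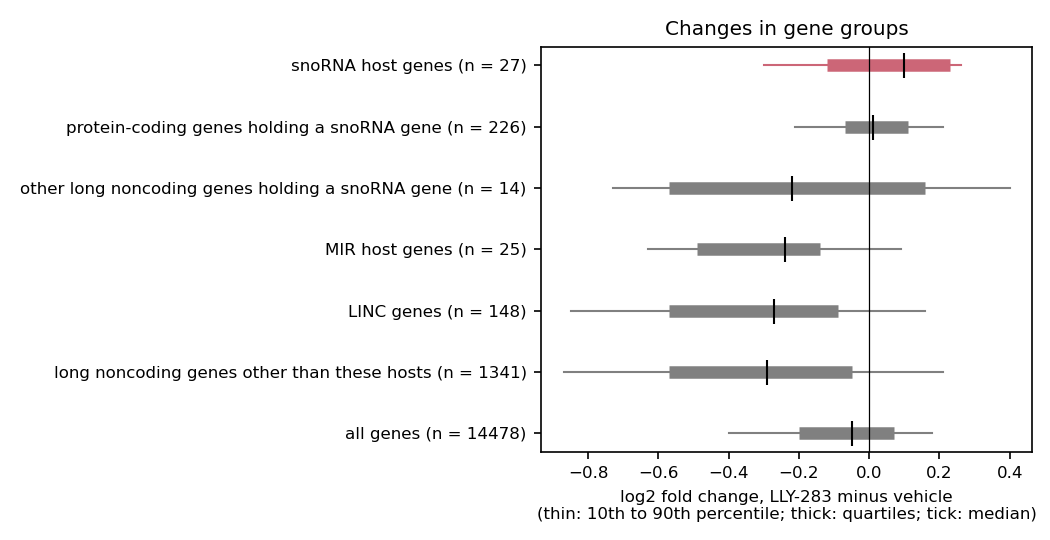
Distribution of log2 changes (LLY-283 minus vehicle) in groups of tested genes, with thin lines from the 10th to the 90th percentile, thick bars for the quartiles and ticks for medians. The snoRNA hosts have a median of 0.10, and the noncoding groups other than the snoRNA hosts have medians between -0.29 and -0.22.

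Protein-coding genes can host snoRNAs too, among them many genes of ribosomal proteins. Of a written list of 43 such hosts, all tested, 11 were higher and 2 lower with LLY-283, and the median log2 change was 0.09. WDR43, a factor of small subunit assembly, had the smallest p-value among the increases, from 37.8 ± 0.843 to 45.7 ± 0.932 TPM as mean ± SD of 4 libraries each (log2 change 0.28, adjusted p = 0.000433). DDX39B, a helicase of splicing and RNA export, had the smallest among the decreases, from 386 ± 4.84 to 335 ± 4.21 TPM (log2 change -0.20, adjusted p = 0.000364). Over the 226 tested protein-coding genes that hold an annotated snoRNA gene, 15.5% were higher and 9.73% lower, with a median of 0.01, against 9.75% and 17.1% of all protein-coding genes tested.

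A snoRNA is stable only when its proteins assemble on it, so the genes of those proteins were followed as well. Of the 4 core proteins of box C/D particles, NOP58 rose from 89.9 ± 2.59 to 107 ± 5.20 TPM as mean ± SD of 4 libraries each (log2 change 0.26, adjusted p = 0.00187). The methyltransferase FBL (log2 change 0.10, adjusted p = 0.151), SNU13 (0.16, adjusted p = 0.0745) and NOP56 (-0.05, adjusted p = 0.533) were not called. Of the 4 core proteins of box H/ACA particles, the pseudouridine synthase DKC1 (log2 change 0.11, adjusted p = 0.0181) and NOP10 (0.10, adjusted p = 0.0239) rose, and NHP2 (0.14, adjusted p = 0.118) and GAR1 (0.08, adjusted p = 0.278) were not called. Among 14 assembly factors, 6 were higher, and the log2 change was positive in all 14 (median 0.09), where 8.61% of all genes were higher and 17.6% lower. No core or assembly gene was called lower or had a lower level at an unadjusted p-value under 0.05 in limma. The smallest p-value belonged to WRAP53, which directs scaRNAs to Cajal bodies, from 29.3 ± 1.39 to 40.0 ± 1.14 TPM as mean ± SD of 4 libraries each (log2 change 0.45, adjusted p = 0.000152).

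Nonsense-mediated decay removes many host RNAs. Of 15 genes of the pathway and its exon junction partners, 4 were higher and 3 lower, where 8.61% of all genes were higher and 17.6% lower, so that the decreases are near the background share. MAGOH, a protein of the exon junction complex, rose from 160 ± 3.37 to 186 ± 5.04 TPM as mean ± SD of 4 libraries each (log2 change 0.22, adjusted p = 0.00076), and UPF3A fell from 30.0 ± 0.868 to 27.1 ± 0.584 TPM (log2 change -0.15, adjusted p = 0.017). With median-of-ratios scaling no gene of this list was called lower. Of the genes called in the lists on particles, assembly and decay, 0 changed by more than 1.5-fold.

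**Figure D5:**
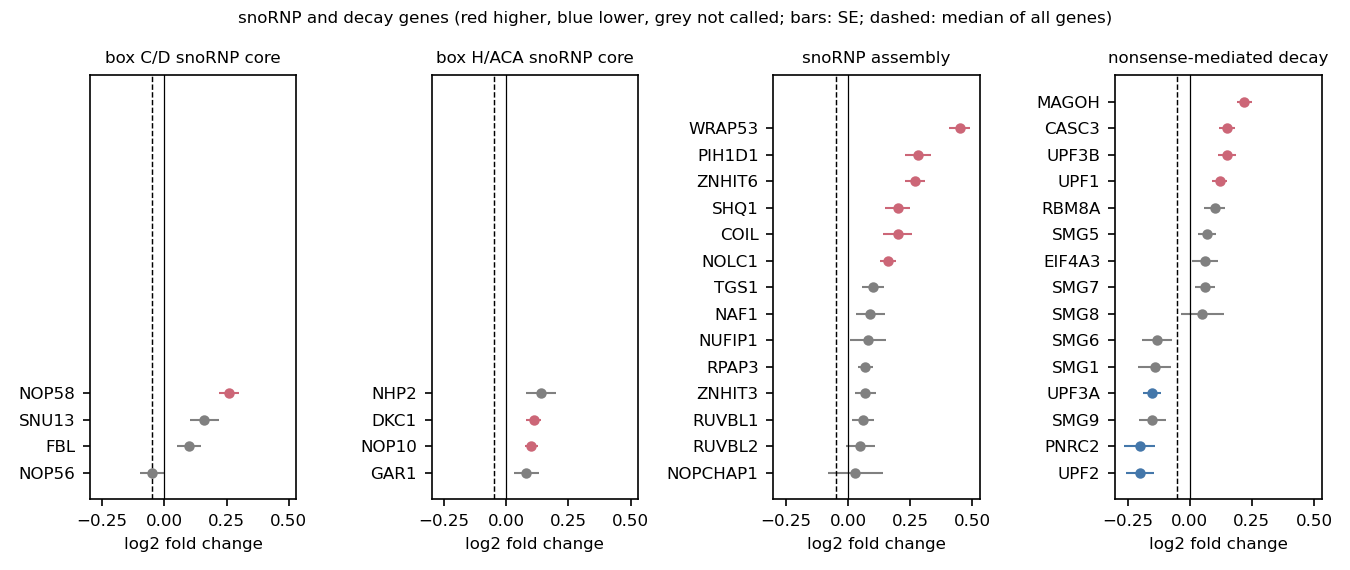
Log2 fold change (LLY-283 minus vehicle) of the genes of snoRNA particles, their assembly and nonsense-mediated decay, with standard errors as bars; red is higher and blue lower at an adjusted p-value under 0.05, grey is not called, and the dashed line is the median of all genes tested (-0.05). The assembly genes all lie to the right of 0, led by WRAP53 at 0.45, and the decay genes lie on both sides.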

How the data were processed

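Poly(A) RNA of U251 cells was sequenced after 24 h with DMSO or with LLY-283 at 100 nM, 4 libraries each. The authors removed adapters (Cutadapt 1.18), aligned the reads to GRCh38 by STAR (2.7.6a in the methods, 2.7.0f in the submitters' processing notes), ran RSEM (1.3.3 and 1.3.1, respectively) on GENCODE release 41, and deposited TPM values per gene and library. TPM removes depth and length but not composition, so a few abundant genes can shift all others. The strandedness of the counting is not given in the sources used here, so overlapping and antisense genes are uncertain.

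All 14478 genes averaging 1 TPM or more were compared on log2(TPM + 0.1) with limma 3.58.1 in R 4.3.3 (eBayes with a trend, no block; Benjamini-Hochberg adjustment), calling genes at an adjusted p-value under 0.05. Fold changes on this scale understate the change of low genes. The fit was run on simulated data in which 200 of 14478 genes changed by 1 on the log2 scale. It recovered 176 of them and called 11 unchanged genes. The called host genes changed by less than 1, and recovery at their size was not tested. Alternatives changed the pseudocount, filter, scaling, eBayes form, block and libraries. Positions came from GENCODE release 44 and start windows from RefSeq, with snoRNA names from RefSeq positions. All members were named, with the members of the 4-gene lists, the smallest p-value in each direction of other lists and coding neighbours of called members; the other genes and sequences were chosen after their values were seen. Members and lists were chosen with earlier results of these data known. A neighbouring gene is not reported here.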

Additional observations from a re-analysis of the deposited data

Results flagged for a closer look

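In 4 of the 62 groups of 4 libraries (31 host genes, 2 groups each), the highest or lowest library stood apart from its group by more than Dixon's 95% limit, which chance alone gives in about 1 of 20 groups. Of these, 3 concerned LLY-283 replicate 4, the library with the low mitochondrial share, and all 3 were low values. SNHG4 had 11.64 TPM there against 16.95 to 17.94 TPM in the other LLY-283 libraries, SNHG21 had 12.40 TPM against 14.51 to 14.78 TPM, and SNHG22 had 0.11 TPM against 0.22 to 0.23 TPM. The remaining one was SNHG32 in vehicle replicate 4, at 133.01 TPM against 123.51 to 124.79 TPM. The relation of these values to the mitochondrial share was not tested.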

How the results depend on the processing

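Over 18 alternatives, the 27 host genes kept direction and side of the threshold in 399 of 484 gene-by-alternative values, lost a call in 72 and gained one in 7. The direction turned in 6, all for SNHG21, near 0 throughout: -0.01 without mitochondrial genes, and between -0.07 and 0.08 with single libraries left out. Increased host genes numbered 10, but 4 with no filter on low values (2.96% of all genes were higher there), 6 without mitochondrial genes (7.86%), 4 with eBayes without a trend (7.16%) and between 3 and 12 with 1 library left out. Decreased host genes numbered 2, but 1 with median-of-ratios scaling, without mitochondrial genes and with eBayes without a trend, and between 1 and 2 with 1 library left out. With the replicate block, 7 host genes were higher and 1 lower, against 7.56% and 15.2% of all genes. The numbers did not pair the libraries, since same-numbered libraries had correlations of deviations between -0.0851 and 0.0320 and 0 libraries correlated best with their own number. Requiring more than 1.5-fold in the main fit left 0 host genes in either direction, 57 genes higher and 504 lower in all, and 0 genes of the 5 lists. Genes called higher in all numbered 1871 under quantile normalization and 1927 under median-of-ratios scaling, against 1247. The median of the host genes was 0.14 with median-of-ratios scaling and lay between 0.09 and 0.13 with 1 library left out. In the lists, box C/D core genes higher went from 1 to 2 with median-of-ratios scaling. Box H/ACA core genes higher went from 2 to 1 with no filter and with eBayes without a trend, and lay between 1 and 2 with 1 library left out. Decay genes lower went from 3 to 1 with no filter, to 0 with median-of-ratios scaling and to 0 with the replicate block, and lay between 1 and 3 with 1 library left out. Protein-coding hosts lower went from 2 to 4 with quantile normalization and to 1 with median-of-ratios scaling, and those higher lay between 9 and 17 with 1 library left out (17 without LLY-283 replicate 4). The cause of these changes was not tested. The unknown depth limits low values most.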

Other observations

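Some protein-coding genes that overlap a called host gene or start beside it were measured as well. Genes on the opposite strand of a host that rose were lower in 3 cases: ST6GALNAC2 beside SNHG16 (10.8 ± 0.422 TPM with vehicle, SD, n = 4; log2 fold change -0.65, adjusted p = 0.000364, limma), LRRC75A beside SNHG29 (log2 fold change -0.42, adjusted p = 0.00127) and TRAF7, whose start lies 293 bases from that of SNHG19 (log2 fold change -0.19, adjusted p = 0.00742). SLC3A2, an amino acid transporter subunit that starts 51 bases from SNHG1, had a log2 fold change of -0.12 (adjusted p = 0.055). RCC1, which overlaps SNHG3 on the same strand with a start 37 bases away, was lower (log2 fold change -0.13, adjusted p = 0.0402) while SNHG3 was higher, and how the authors' counting divided reads between them was not tested.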
